A study of Mus musculus with 20 samples.

Results

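The genes Ankrd1, Ankrd2, Ankrd23, Csrp3, Xirp1, Xirp2 and Flnc encode proteins that sit on titin or at the Z-disc of the muscle sarcomere and are known for their response to mechanical load. They were chosen by name, with earlier results of these data known. Each had 1 row in the deposited table, so that 7 of 22660 rows are described here. All 7 had enough counts to be tested in every comparison.

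The Z-disc anchors the thin filaments of neighbouring sarcomeres together with one end of titin, the giant elastic protein that runs to the middle of the sarcomere, and it is regarded as a place where a muscle fiber senses stretch. Ankrd1, Ankrd2 and Ankrd23 encode the muscle ankyrin repeat proteins, also named CARP, ARPP and DARP, which bind the elastic part of titin beside the protease calpain-3 and can move to the nucleus. Csrp3 encodes muscle LIM protein, which binds telethonin and alpha-actinin at the Z-disc. Xirp1 and Xirp2 encode the Xin repeat proteins, which bind actin, and Flnc encodes filamin C, an actin crosslinker that binds Xin and that is unfolded by load and cleared by Bag3 with small heat shock proteins.

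RNA was sequenced from whole plantaris muscle of 20 male C57BL/6J mice that the labels give as 2 years old, in 4 groups of 5 mice that crossed the operation (sham or MOV) with the gavage (vehicle or D + Q). MOV is mechanical overload of the plantaris, made in both legs by cutting away part of the gastrocnemius and soleus, and in sham mice the skin alone was opened. D + Q is a senolytic gavage of dasatinib, a tyrosine kinase inhibitor, at 5 mg/kg with quercetin, a plant flavonoid, at 50 mg/kg, and vehicle mice received the polyethylene glycol solution. Gavage was on days 7 and 10 and muscle was taken on day 14, although one deposited description puts the second gavage of sham mice on day 14. All 4 groups were wild-type old mice, and no library of a younger mouse was among those analysed.

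The deposited values were estimated read counts, which summed to between 17887532 and 26234518 per mouse. Levels are given as CPM, in which a gene's counts are related to a library total that was scaled by the TMM method of edgeR. Fold changes were fitted with edgeR's quasi-likelihood test, with Benjamini-Hochberg adjustment over all genes tested and a threshold of 0.05. The myofibre markers summed to between 79615 and 85720 CPM in sham mice and between 49564 and 70962 CPM in MOV mice, and 0 of these 7 markers was at 0 CPM in any group. In the same groups the 6 fibroblast markers ran from 366.9 to 953.1 CPM in sham and from 4469 to 10962 CPM in MOV mice, and the 8 macrophage markers from 57.8 to 153.4 CPM and from 275.1 to 817.2 CPM. Whether these shifts had a part in the values of the 7 genes was not tested. CPM is a share of the library. In whole muscle, fewer fibers, less RNA per fiber and more RNA of other cells therefore cannot be told apart.

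The levels of the 7 genes were compared per kilobase of their main annotated transcript. In vehicle sham muscle Ankrd23 had the highest level at 1473 ± 131.0 CPM per kb (SD, n = 5), followed by Xirp2 at 212.3 ± 8.67 and Flnc at 158.2 ± 26.1 CPM per kb. Csrp3 had 72.3 ± 14.6, Ankrd2 50.9 ± 16.1, Xirp1 41.7 ± 9.35 and Ankrd1 9.51 ± 3.00 CPM per kb. Single mice of neighbouring genes in this order overlapped for Csrp3 with Ankrd2 and for Ankrd2 with Xirp1, and were apart for the other neighbours. In vehicle MOV muscle the order changed. Ankrd23 had 836.3 ± 159.7 and Csrp3 786.3 ± 363.6 CPM per kb (SD, n = 5 each), with overlapping mice, and Ankrd2 (339.0 ± 126.8), Flnc (336.0 ± 187.8) and Xirp2 (318.7 ± 124.5) lay close together. Ankrd1 remained the lowest of the 7 at 111.3 ± 67.7 CPM per kb. In D + Q MOV muscle Ankrd23 (851.6 ± 99.3 CPM per kb) stood apart from Csrp3 (475.0 ± 118.7), and Csrp3 stood apart from Xirp2 (230.9 ± 41.1), the next gene in that group.

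**Figure D1:**
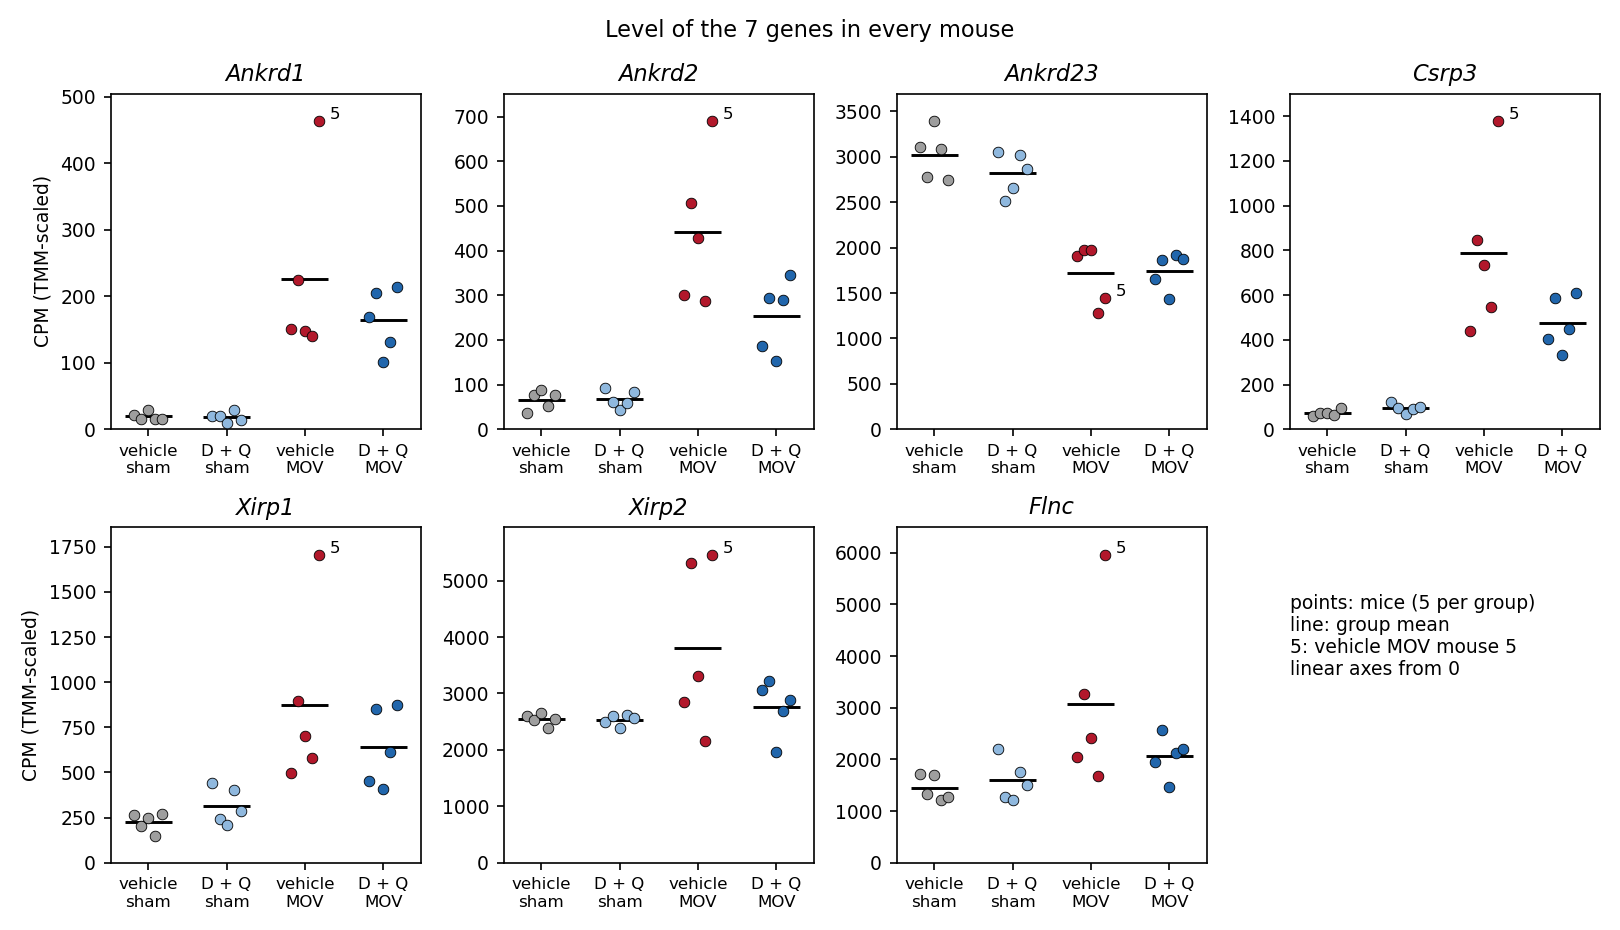
Level of each of the 7 genes in every mouse, as TMM-scaled CPM on linear axes from 0, with 5 mice per group as points and the group mean as a line. The MOV mice lie above the sham mice for Ankrd1, Ankrd2 and Csrp3 and below them for Ankrd23, and vehicle MOV mouse 5, marked 5, is the highest mouse of the panel for Ankrd1, Ankrd2, Csrp3, Xirp1, Xirp2 and Flnc.

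In vehicle mice, MOV against sham asks how the overload operation moved these genes without D + Q. It joins overload with the cutting of neighbouring muscles, which sham mice did not have. Of the 7 genes 6 were higher in MOV muscle and 1, Ankrd23, was lower at an adjusted p under 0.05. Among the 14601 genes tested, 30.7% were higher and 29.8% were lower, and the median log2 fold change was -0.015 over all of them against 1.96 over the 7 genes. In 5 of the 7 genes (Ankrd1, Ankrd2, Ankrd23, Csrp3 and Xirp1) the 5 MOV mice did not overlap the 5 sham mice, which was so for 46.5% of all genes tested. In D + Q mice, 4 of the 7 genes were higher (34.4% of 14913 genes tested) and Ankrd23 was lower (30.9%), with a median of 1.07 over the 7 genes against 0.023 over all genes. Ankrd1, Ankrd2, Ankrd23 and Csrp3 had MOV and sham mice that did not overlap with D + Q, against 53.1% of all genes. With libraries scaled by total counts alone, the median of all genes moved to 0.36 in vehicle and 0.39 in D + Q mice, and the genes called shifted from 4482 higher and 4349 lower to 7683 higher and 1453 lower in vehicle mice. Under that scaling 6 of the 7 genes were higher in both treatments and Ankrd23 was lower, with log2 fold changes of -0.43 in vehicle and -0.28 in D + Q mice.

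Ankrd1, the cardiac ankyrin repeat protein, is little expressed in resting adult skeletal muscle. It was measured at 21.1, 15.6, 29.2, 15.5 and 15.0 CPM in vehicle sham mice and at 151.3, 224.6, 148.2, 140.3 and 463.5 CPM in vehicle MOV mice 1 to 5. The lowest MOV mouse was several-fold above the highest sham mouse, and mouse 5 stood above the other MOV mice. It rose 11.8-fold, or by 3.56 on the log2 scale with a standard error of 0.424 (adjusted p = 8.63e-05). In D + Q mice the sham values were 19.2, 19.7, 10.0, 28.9 and 14.2 CPM and the MOV values 168.3, 205.4, 101.3, 130.6 and 214.8 CPM, and again no mice overlapped. The rise was 9.21-fold here, 3.20 on the log2 scale with a standard error of 0.331 (adjusted p = 2.87e-05). Without vehicle MOV mouse 5 the rise in vehicle mice was 3.14 on the log2 scale, or 8.80-fold.

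Ankrd2, which is best known from slow fibers and from stretched muscle, was measured at 37.4, 77.5, 88.0, 51.7 and 77.8 CPM in vehicle sham and at 301, 507, 428.8, 287.1 and 689.8 CPM in vehicle MOV mice. The rise was 6.72-fold (log2 fold change 2.75, standard error 0.323, adjusted p = 5.34e-05). With D + Q it went from 91.7, 60.4, 42.8, 59.6 and 84.0 CPM in sham mice to 187.2, 293.8, 153.6, 288.9 and 344.9 CPM in MOV mice, a 3.87-fold rise (log2 fold change 1.95, standard error 0.292, adjusted p = 0.000329). Sham and MOV mice were apart in both treatments, and 2 of the 5 D + Q MOV mice lay below every vehicle MOV mouse.

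Ankrd23, the third muscle ankyrin repeat protein, moved against its 2 relatives. It was at 3109, 2777, 3391, 3090 and 2739 CPM in vehicle sham and at 1912, 1969, 1970, 1282 and 1444 CPM in vehicle MOV mice, a fall to -0.80 on the log2 scale with a standard error of 0.123 (adjusted p = 4.66e-05). The D + Q sham mice had 3050, 2513, 2658, 3014 and 2870 CPM and the D + Q MOV mice 1656, 1859, 1430, 1914 and 1875 CPM, a fall to -0.64 on the log2 scale with a standard error of 0.0850 (adjusted p = 2.99e-06). Every MOV mouse of either treatment was below every sham mouse of the same treatment. The Ankrd23 locus overlaps Gm42417 on the same strand and Cnnm3 on the opposite strand, and these had 33 to 159 and 290 to 447 counts per mouse against 29283 to 67549 counts of Ankrd23.

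Ankrd1 (chromosome 19 of GRCm39, 36089352 to 36097506, minus strand) and Ankrd2 (chromosome 19, 42024274 to 42033552, plus strand) lie on one chromosome, and Ankrd23 (chromosome 1, 36563865 to 36575964, minus strand) on another. Because the 3 relatives moved in different directions, the 250 bases before each RefSeq start were read and searched on both strands for 5 motifs. RefSeq promoters of assembly GRCm38.p6 were matched for 6 of the 7 genes, all but Xirp1, and each was placed in GRCm39 by its exact match. The letters CATTCC, which TEAD factors bind, were found at positions -210 and -123 of Ankrd1 (on the minus strand of the gene, as GGAATG) and at -120 of Ankrd23, and in none of the other 4. Of 32851 RefSeq promoters of the same length, 12.6% held these letters at least once and 1.02% held them at 2 or more places. The stretches around the matches are shown for Ankrd1, which rose, and Ankrd23, which fell, and capitals mark the match. Ankrd2 and Csrp3 also rose and held no such match. Whether these letters had a part in the changes was not tested.
Ankrd1, chr19:36097437-36097466, minus strand: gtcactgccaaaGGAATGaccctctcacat
Ankrd1, chr19:36097350-36097379, minus strand: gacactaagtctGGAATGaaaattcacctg
Ankrd23, chr1:36574908-36575070, minus strand: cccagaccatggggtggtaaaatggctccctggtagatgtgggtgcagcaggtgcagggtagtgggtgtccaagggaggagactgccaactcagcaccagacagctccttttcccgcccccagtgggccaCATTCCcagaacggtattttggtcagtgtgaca
The Ankrd23 stretch lies before the main transcript and in an intron of 2 longer ones, outside every annotated exon of GENCODE, whereas this annotation puts the first exon of Ankrd1 over both Ankrd1 stretches. A match is a description of letters and not of binding.

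Csrp3, muscle LIM protein (chromosome 7, 48480142 to 48497901, minus strand), had 57.5, 72.2, 73.5, 63.4 and 95.8 CPM in vehicle sham mice and 441.4, 843.9, 735.3, 545.5 and 1377 CPM in vehicle MOV mice. The rise was 11.0-fold (log2 fold change 3.46, standard error 0.318, adjusted p = 8.37e-06) and the groups were far apart. In D + Q mice it had 120.6, 96.1, 69.1, 88.9 and 100.7 CPM with sham and 404.6, 587, 332.8, 447.6 and 610.2 CPM with MOV, a 5.18-fold rise (log2 fold change 2.37, standard error 0.207, adjusted p = 5.16e-06). The stretch upstream of the Csrp3 gene is shown with 3 of the 4 E-boxes of its window in capitals (the other lies in the first exon), the letters CANNTG that myogenic bHLH factors bind, because no TEAD, AP-1, SRF or MEF2 match was found in its window.
Csrp3, chr7:48497902-48498049, minus strand: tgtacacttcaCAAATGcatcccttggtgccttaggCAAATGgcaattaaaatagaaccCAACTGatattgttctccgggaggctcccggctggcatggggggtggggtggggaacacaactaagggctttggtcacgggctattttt
An E-box was found in 66.2% of all promoters of this length, and within the window also in Ankrd1, Ankrd2, Ankrd23 and Xirp2, so that it does not set Csrp3 apart.

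Xirp1, Xin, a protein of the intercalated disc in heart and of the myotendinous junction and of damaged fibers in skeletal muscle (chromosome 9, 119842821 to 119852664, minus strand), had 265.7, 201.1, 246.8, 150.2 and 270.4 CPM in vehicle sham and 496.9, 896.5, 703.8, 578.3 and 1706 CPM in vehicle MOV mice. It rose 3.90-fold (log2 fold change 1.96, standard error 0.352, adjusted p = 0.000953), and 3.01-fold without vehicle MOV mouse 5. With D + Q the sham values of 441.2, 240.6, 210.2, 400.7 and 287 CPM overlapped the MOV values of 455.4, 853.7, 408.7, 613.4 and 871.2 CPM in 1 mouse, and the rise was 2.09-fold (log2 fold change 1.07, standard error 0.300, adjusted p = 0.0124).

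Xirp2, the second Xin repeat gene (chromosome 2, 67004178 to 67356962, plus strand), was the steadiest of the 7 in sham muscle and uneven after overload. It had 2596, 2524, 2660, 2381 and 2541 CPM in vehicle sham mice, a coefficient of variation of 4.09%, and 2846, 5305, 3306, 2153 and 5459 CPM in vehicle MOV mice, a coefficient of variation of 39.1%. MOV mouse 4 was below all sham mice and the other 4 were above them. The log2 fold change of 0.60 (standard error 0.229, adjusted p = 0.0412) passed the threshold, but a two-sided exact permutation test gave p = 0.111, and the call held in 3 of 10 fits that left out 1 mouse. In D + Q mice Xirp2 had 2501, 2609, 2382, 2610 and 2574 CPM with sham and 3059, 3221, 1957, 2691 and 2891 CPM with MOV. Here the value was 0.17 on the log2 scale with a standard error of 0.104 (adjusted p = 0.161), and 4 MOV mice were above and 1 was below all sham mice. The stretch before the start of the shorter Xirp2 transcripts, which lies in an intron of the longer ones, is shown because it holds, in capitals, the single match to the MEF2 motif among the 6 genes searched, a motif found in 2.92% of all promoters of this length.
Xirp2, chr2:67276096-67276300, plus strand: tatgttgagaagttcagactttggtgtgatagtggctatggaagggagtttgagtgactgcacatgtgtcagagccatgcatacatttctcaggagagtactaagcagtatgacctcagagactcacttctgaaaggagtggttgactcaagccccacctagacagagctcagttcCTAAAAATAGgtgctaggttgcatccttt
The same window of Xirp2 held 1 AP-1 match (the letters TGANTCA, in 6.75% of promoters) at -107 and 2 E-boxes that overlap each other at -190 and -188. The CArG box of SRF, in 1.47% of promoters, was found in none of the 6, and Flnc held no match to any of the 5 motifs.

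Flnc, filamin C (chromosome 6, 29433072 to 29461887, plus strand), had 1716, 1335, 1691, 1211 and 1282 CPM in vehicle sham mice and 2054, 3258, 2416, 1677 and 5962 CPM in vehicle MOV mice. MOV mouse 4 lay within the sham range and the other 4 were above it. The rise was 2.14-fold (log2 fold change 1.10, standard error 0.324, adjusted p = 0.0144), and 1.66-fold without MOV mouse 5. With D + Q the sham values of 2205, 1276, 1222, 1753 and 1514 CPM and the MOV values of 1951, 2571, 1466, 2133 and 2205 CPM overlapped in 4 of 5 MOV mice. The log2 fold change of 0.42 (standard error 0.190, adjusted p = 0.0768) did not pass the threshold.

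**Figure D2:**
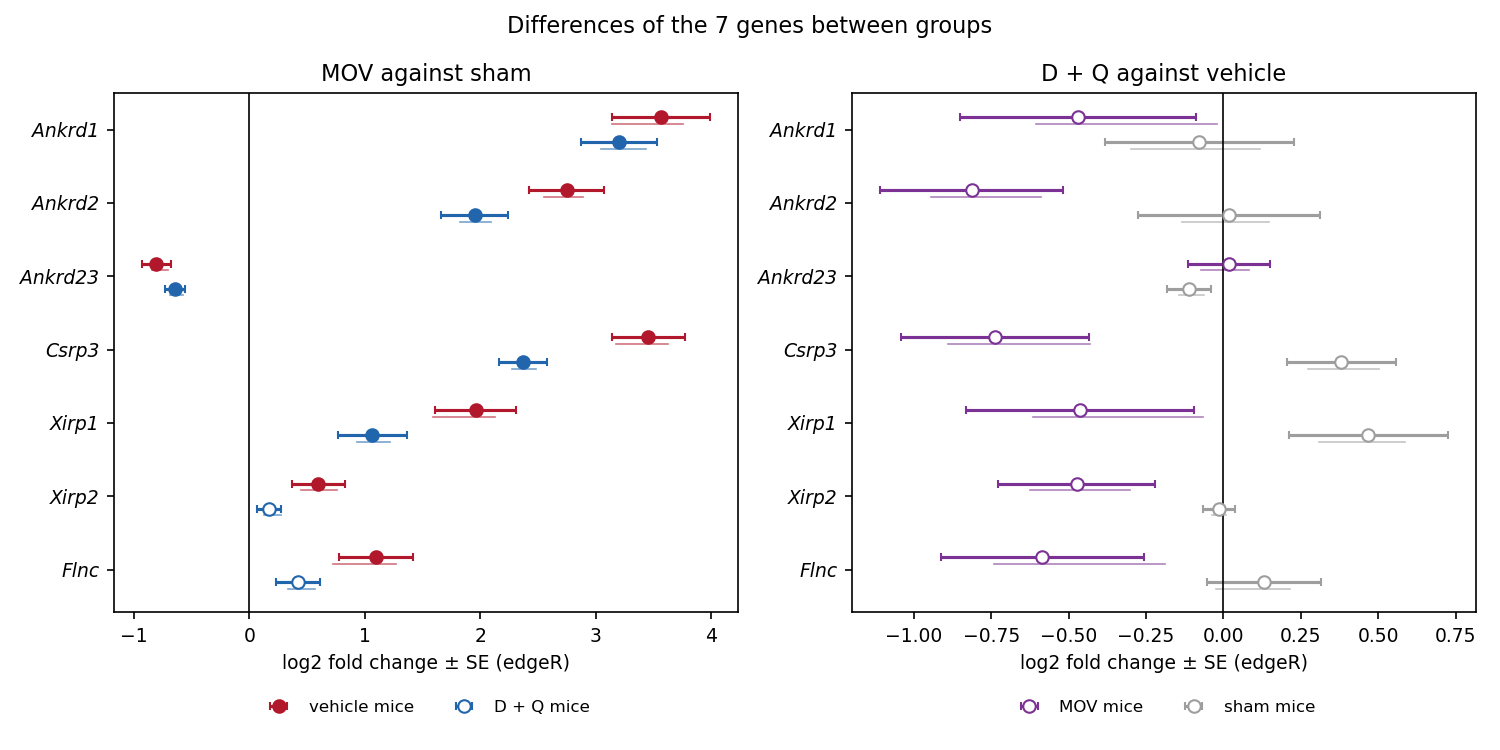
Log2 fold change with its standard error for the 7 genes, MOV against sham on the left and D + Q against vehicle on the right. Filled points have an adjusted p under 0.05, the thin line under each point is the range over fits that each lacked 1 mouse, and the vehicle point lies farther from 0 than the D + Q point for each of the 7 genes on the left, for Ankrd1 not so without vehicle MOV mouse 5 (3.14 against 3.20).

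D + Q against vehicle in MOV muscle asks whether the senolytic gavage moved these genes during overload. At an adjusted p under 0.05, 0 of the 7 genes and 0% of the 15238 genes tested differed. The authors reported many differing genes for this comparison, with Cryab among the lower ones, using DESeq2 at the same threshold. DESeq2 called 6 genes higher and 5 lower here, and the reason for the gap was not tested. At an unadjusted p under 0.05, Ankrd2 and Csrp3 were lower with D + Q, 2 of 7 genes against 8.79% of all genes. Ankrd2 averaged 442.7 ± 165.6 CPM in vehicle mice against 253.7 ± 80.0 CPM in D + Q mice (SD, n = 5 per group), and its log2 fold change was -0.81 with a standard error of 0.295 (adjusted p = 0.523 in edgeR). Csrp3 averaged 788.7 ± 364.6 and 476.4 ± 119.1 CPM (SD, n = 5 per group), and its log2 fold change was -0.74 with a standard error of 0.303 (adjusted p = 0.547 in edgeR). In both genes the groups overlapped, and 2 of 5 D + Q mice lay below all vehicle mice. The log2 fold changes of Flnc, Xirp2, Ankrd1 and Xirp1 were -0.58, -0.47, -0.47 and -0.46, with standard errors from 0.252 to 0.381, and that of Ankrd23 was 0.018 (standard error 0.133). The median was -0.47 over the 7 genes and 0.002 over all genes tested.

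These values moved with single animals, in both directions. Vehicle MOV mouse 5 had the highest level of the group for Ankrd1, Ankrd2, Csrp3, Xirp1, Xirp2 and Flnc, and without it the log2 fold changes of D + Q against vehicle became -0.021 for Ankrd1, -0.066 for Xirp1, -0.19 for Flnc and -0.30 for Xirp2. Those of Ankrd2 and Csrp3 became -0.59 and -0.43. In the 10 fits that each lacked 1 mouse, the lowest values were -0.95 for Ankrd2, -0.89 for Csrp3 and -0.74 for Flnc. Those of Xirp2, Xirp1 and Ankrd1 were -0.63, -0.62 and -0.60. For each of the 7 genes the adjusted p was lowest without vehicle MOV mouse 4, and 0 were called in any of these fits. Across all genes, vehicle MOV mice 4 and 2 had the lowest mean correlations to the other libraries of their group (0.975 and 0.976). The library of vehicle MOV mouse 5 did not stand apart, at 0.981 where the other 4 had 0.975 to 0.984. Its 9 genes of chaperone-assisted clearance of filamin summed to 12673 CPM, the highest of the vehicle MOV group, whose median was 6286 CPM, and its 10 slow fiber genes summed to 774.5 CPM, the lowest of a group with a median of 1601 CPM. Its macrophage and fibroblast marker sums, 505.6 and 7425 CPM, were near the group medians of 515.3 and 7425 CPM. The part of these in the levels of the 7 genes was not tested.

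In sham muscle, where the gavage was given without overload, 0 of the 7 genes differed between D + Q and vehicle at an adjusted p under 0.05, against 0.215% of 13926 genes tested. At an unadjusted p under 0.05 it was again 0 of 7, against 10.2% of all genes. Csrp3 averaged 72.5 ± 14.6 CPM in vehicle mice against 95.1 ± 18.7 CPM in D + Q mice (SD, n = 5 per group), its log2 fold change was 0.38 with a standard error of 0.176 (adjusted p = 0.504 in edgeR), and 3 of 5 D + Q mice lay above all vehicle mice. Xirp1 averaged 226.9 ± 50.9 and 315.9 ± 100.7 CPM (SD, n = 5 per group), and its log2 fold change was 0.47 with a standard error of 0.256 (adjusted p = 0.584 in edgeR). The other 5 genes had log2 fold changes between -0.11 and 0.13.

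The interaction asks whether the MOV response differed with treatment, in one fit of all 20 mice. At an adjusted p under 0.05, 0 of the 7 genes differed, against 0.0127% of the 15700 genes tested. Csrp3 had a log2 difference between the responses of -1.12 (standard error 0.372, adjusted p = 0.719 in edgeR's quasi-likelihood test), and was the single gene of the 7 at an unadjusted p under 0.05, where 5.71% of all genes were. Its rise was thus 3.46 on the log2 scale with vehicle and 2.37 with D + Q, and the difference stayed between -1.27 and -0.82 in 20 fits that each lacked 1 mouse. The differences of Xirp1, Ankrd2, Flnc, Xirp2 and Ankrd1 were -0.93, -0.83, -0.71, -0.46 and -0.39, and that of Ankrd23 was 0.13. Without vehicle MOV mouse 5 the differences became -0.82 for Csrp3, -0.54 for Xirp1, -0.61 for Ankrd2, -0.33 for Flnc, -0.30 for Xirp2, 0.048 for Ankrd1 and 0.070 for Ankrd23. For Csrp3 and Xirp1 the interaction held a difference in sham muscle as well as one in MOV muscle. D + Q against vehicle was -0.74 in MOV and 0.38 in sham muscle for Csrp3, and -0.46 and 0.47 for Xirp1. The interaction, the MOV comparisons and the D + Q comparisons share the same mice, so that their values for a gene are not independent of each other.

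Beyond the group means, the mice of one group differed in how far these genes were raised, and several genes moved together. After the mean log2 CPM of each group was subtracted, each pair of genes was correlated over the 10 MOV mice and over the 10 sham mice, which made 42 relations, with two-sided exact permutation p-values over the 14400 arrangements of mice within groups. In MOV mice, 15 of 21 pairs had an adjusted p under 0.05, and these 15 are the pairs among Ankrd1, Ankrd2, Csrp3, Xirp1, Xirp2 and Flnc. The share of pairs of other genes that would pass in the same mice was not computed. The count therefore does not show whether moving together is particular to these genes. Pearson's r ranged from 0.77 to 0.98 over the 15 pairs, and the same 15 passed with Spearman's rho. Csrp3 and Xirp1 were the closest pair (r = 0.98, rho = 0.99, exact permutation p = 6.94e-05 for each, adjusted p = 0.00292), and r was 0.97 without the 2 mice farthest from the median of Csrp3. For Ankrd1 and Ankrd2 the relation was weaker without the 2 farthest mice, with r falling from 0.82 to 0.55. The 6 pairs of Ankrd23 did not pass, with r between 0.02 and 0.39, and these values rested on few mice. Without the 2 farthest mice, r was 0.31 with Ankrd1, -0.31 with Ankrd2, -0.53 with Csrp3, -0.51 with Xirp1, -0.52 with Xirp2 and -0.73 with Flnc. Without vehicle MOV mouse 5 and the second farthest mouse, r of Ankrd1 with Csrp3, Xirp1, Xirp2 and Flnc was 0.70, 0.71, 0.72 and 0.71.

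In sham mice 4 of 21 pairs passed, namely Ankrd1 with Xirp2 (r = 0.76), Ankrd2 with Csrp3 (r = 0.85), Ankrd23 with Flnc (r = 0.77) and Xirp1 with Flnc (r = 0.85), with exact permutation p-values of 0.0188, 0.00431, 0.0174 and 0.00701. Their rho values were 0.76, 0.89, 0.77 and 0.78. The median r over the 21 pairs was 0.46 in sham and 0.83 in MOV mice, and the difference between these medians was not tested. Of these 4 pairs, Ankrd1 with Xirp2, Ankrd2 with Csrp3 and Xirp1 with Flnc were also among the 15 of the MOV mice, and Ankrd23 with Flnc was not.

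**Figure D3:**
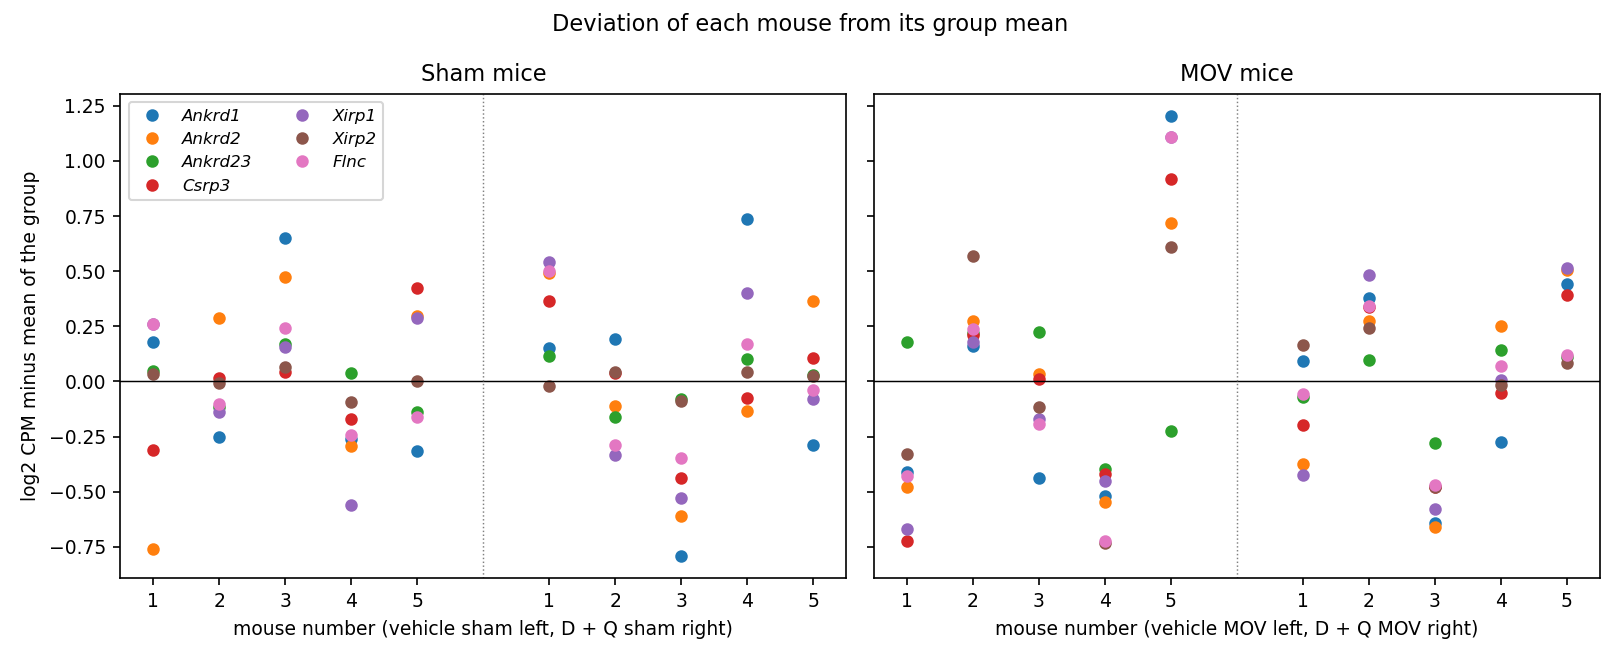
Deviation of each mouse from the mean log2 CPM of its group for the 7 genes, sham mice on the left and MOV mice on the right, with vehicle mice 1 to 5 followed by D + Q mice 1 to 5 in each panel. In MOV mice the points of a mouse other than Ankrd23 lie mostly on one side of 0, high in vehicle MOV mouse 5 and low in vehicle MOV mice 1 and 4 and D + Q MOV mouse 3.

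**Figure D4:**
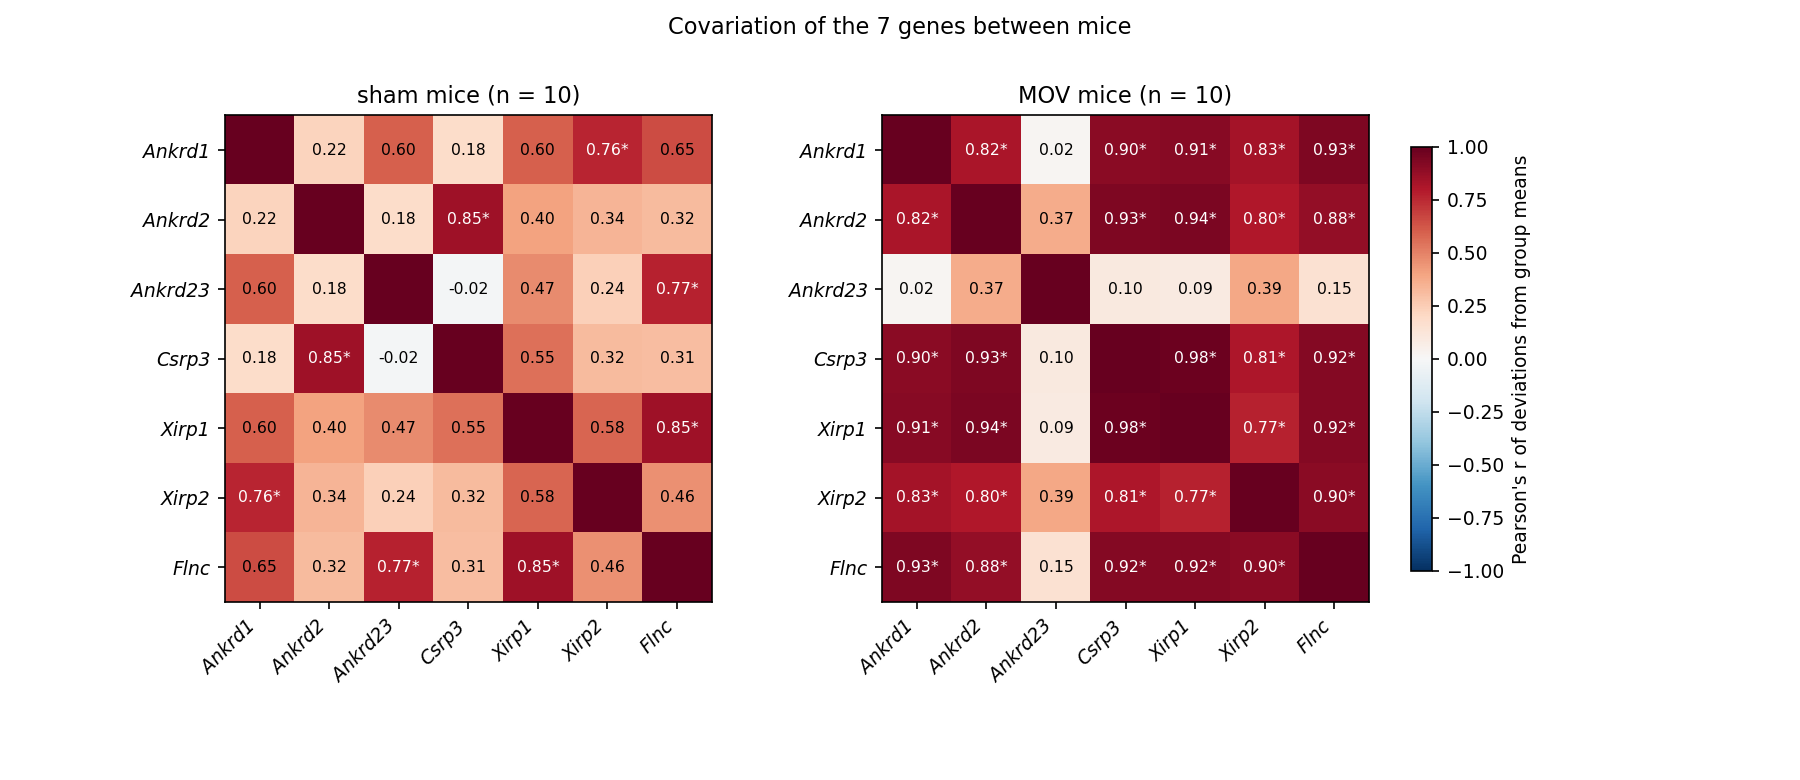
Pearson's r between the deviations of the 7 genes from their group means, over 10 sham mice on the left and 10 MOV mice on the right, with an asterisk where the adjusted exact permutation p was under 0.05. The asterisks cover 4 of 21 pairs in sham and 15 of 21 pairs in MOV mice, and the row of Ankrd23 is pale in MOV mice.

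Over all 20 mice, with group means subtracted, the genes whose log2 CPM followed each of the 7 most closely were found among 13201 genes with a mean of at least 1 CPM. They were Amot (r = 0.87) and Rad23b (0.85) for Ankrd1, Otulin (0.88) and Lmcd1 (0.85) for Ankrd2, Rnf115 (0.91) and Lmcd1 (0.90) for Csrp3, and 3425401B19Rik (0.88) and Vwa7 (0.87) for Ankrd23. For Xirp1 they were Usp28 (0.93) and Rnf115 (0.92), for Xirp2 Uhrf1bp1l and Usp47 (0.95 each), and for Flnc Usp28 (0.98) and Mapre2 (0.95). Being the top of many genes, these correlations are a description.

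The other genes of the same structures are given from lists chosen by function, and their counts stand beside the 30.7% of all genes that were higher and the 29.8% that were lower in vehicle mice, or 34.4% and 30.9% in D + Q mice. Of 20 titin ligands and titin-signalling genes, 5 were higher and 14 lower in MOV than in sham muscle of vehicle mice, with a median log2 fold change of -0.41, and 5 were higher and 15 lower in D + Q mice. Titin itself (Ttn) fell by 0.59 on the log2 scale (standard error 0.109, adjusted p = 0.000244), Capn3, the calpain-3 gene, fell by 0.52, Tcap, which encodes telethonin, the partner of muscle LIM protein, fell by 0.90, and Mypn, which encodes myopalladin, a partner of Ankrd1, fell by 0.44. Smyd2, a methyltransferase that associates with titin through Hsp90, fell by 1.07. The rises in this list were led by the four-and-a-half LIM gene Fhl2 (log2 fold change 3.43, from 0.882 to 9.35 CPM), the M-band gene Myom3 (1.24) and Fhl1 (1.06, from 2085 to 4319 CPM). Ankrd23, whose own log2 fold change was -0.80, thus went with most of this list, and Ankrd1 and Ankrd2 did not. A fall was not particular to titin ligands. The 7 myofibre markers, Ttn among them, had a median of -0.55 in vehicle and -0.53 in D + Q mice. The 12 fast fiber genes had -0.73 and -0.80.

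Of 23 Z-disc genes tested in vehicle mice, 6 rose and 7 fell, with a median of -0.13, which are shares near those of all genes. Lmcd1 (1.49) and Pdlim1 (1.47), both LIM domain genes, and Sorbs2 (-1.07) and the calsarcin gene Myoz1 (-0.78) were at the ends. In D + Q mice 6 of 24 rose and 12 fell. Of 19 partners of filamin C and Xin, 13 rose and 4 fell in vehicle mice, with a median of 0.54, and 13 rose and 2 fell with D + Q. Fblim1, a filamin-binding LIM gene, rose by 2.56 from 0.913 CPM, and Cdh2, N-cadherin, by 2.53 from 0.744 CPM, while Tln2, talin 2, fell by 0.44. Pgm5, whose product aciculin binds both filamin C and Xin, had a log2 fold change of 0.17 (adjusted p = 0.113).

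Of 9 genes of the chaperone-assisted clearance of filamin, 4 rose and 1 fell in vehicle mice, with a median of 0.41, and 4 rose and 3 fell with D + Q. Hspb7 rose by 1.93 on the log2 scale, Hspb1 by 1.68 and Bag3 by 0.41 (adjusted p = 0.00302), and Stub1, the ubiquitin ligase of this route, fell by 0.25. Cryab and Hspb8 had log2 fold changes of 0.94 and 0.52 with adjusted p-values of 0.0579 and 0.0845. In D + Q against vehicle MOV muscle 9 of these 9 genes had a log2 fold change below 0, with a median of -0.42 against 0.002 over all genes, and 0 were called. The summed level of this list was 12673 CPM in vehicle MOV mouse 5 and had a median of 6286 CPM in its group, and the part of this mouse in the difference was not tested. Csrp1 and Csrp2, relatives of Csrp3, and Flna, a relative of Flnc, rose in vehicle and in D + Q mice. In vehicle mice the log2 fold changes were 1.73, 4.75 and 1.85, and Csrp2 went from 1.30 to 34.4 CPM. These relatives are best known from smooth muscle and other cells outside the muscle fiber, and the fibroblast marker sum went from a median of 420.5 to 7425 CPM between the same groups, a shift whose part in them was not tested.

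Of 14 genes held to be targets of YAP and TEAD, a list that contains Ankrd1, 8 rose and 4 fell in vehicle mice, with a median of 1.72, and 10 rose and 2 fell with D + Q. The rises were led by Ankrd1 itself and Fjx1 (3.53, from 0.683 CPM), with Ccn1 at 2.32 and Ccn2 at 2.56, and Crim1 fell (-0.88). Of 10 slow fiber genes 6 rose and 1 fell in vehicle mice, with Tnni1 (3.03) and Tnnt1 (2.11) among the rises, and 9 rose and 0 fell with D + Q. Myh7, the slow myosin heavy chain, had a log2 fold change of 1.74 in vehicle mice (adjusted p = 0.144) and rose by 3.14 in D + Q mice (adjusted p = 0.000893). In MOV mice Myh7 averaged 356.9 ± 211.5 CPM with vehicle and 352.7 ± 115.3 CPM with D + Q. In sham mice it averaged 108.1 ± 142.3 and 41.4 ± 26.8 CPM (SD, n = 5 per group). Its interaction was 1.36 (standard error 1.07, adjusted p = 0.931 in edgeR). The slow fiber genes summed to between 325.8 and 1137 CPM in vehicle sham mice, with a median of 398.3 CPM. Of 12 fast fiber genes 8 fell and 1 rose in each treatment, in vehicle mice with Myh4 at -1.56 and Tnnt3 at -1.23 and Myh2, of the intermediate fast fibers, at 0.74. The 12 fast fiber genes summed to at least 84470 CPM in every mouse and the 10 slow fiber genes to at most 1930 CPM.

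**Figure D5:**
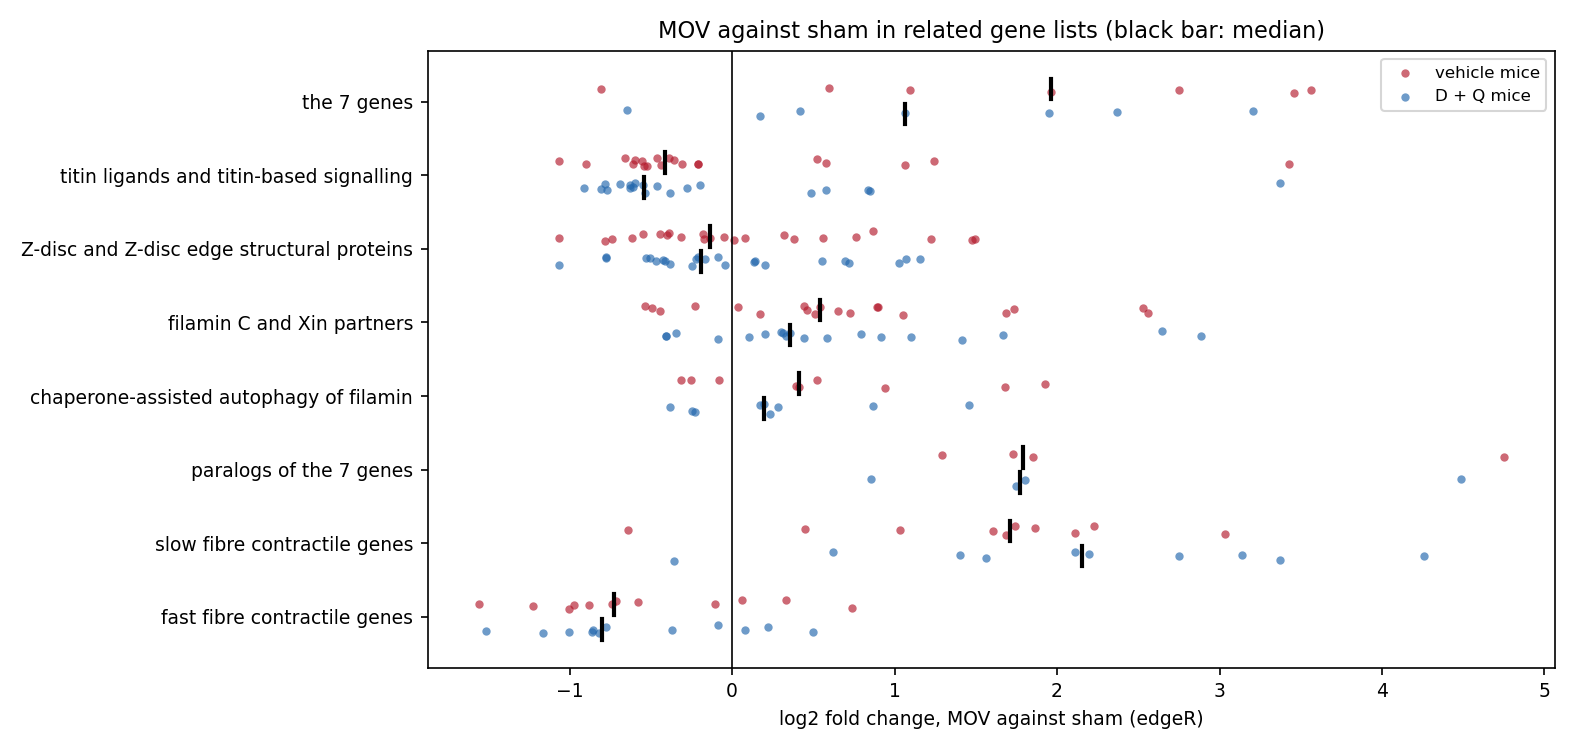
Log2 fold change of MOV against sham for each tested gene of the 7 and of 7 related lists, in vehicle mice (red) and D + Q mice (blue), with the median of each list as a black bar. The 7 genes have medians of 1.96 and 1.07, the titin list lies mostly left of 0, and the paralogs lie right of 0.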

How the data were processed

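The authors aligned the reads with STAR 2.7.8a to GRCm39, estimated gene counts with the expectation-maximization quantifier of Partek Flow against transcriptome release 103 and removed genes below 10 counts. They deposited these estimated counts without normalization, 1 column per mouse, and 29.8% of the values are not whole. Counts were rounded, and libraries were scaled by TMM. Genes reaching 10 counts in 5 or more mice of a fit were tested with edgeR 4.0.16 (quasi-likelihood, robust, R 4.3.3), in the 10 mice of each comparison or in all 20 mice for the interaction, at an adjusted p of 0.05. The test was tested on simulated data. Single genes were also compared by two-sided exact permutation over the 252 ways to divide 10 mice, on log2 CPM with a prior count of 2, where the smallest p is 0.00794. Groups came from the labels. Replicates of a group differed by at least 6.534 times the counting variance. P-values of group differences set the difference against the spread between these mice. 

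Alternatives were DESeq2 1.42.0, RLE factors, total counts only, no filter, at least 10 counts in every mouse, limma-voom (limma 3.58.1), all 20 mice in one fit, the replicate number as a block, a prior count of 0.5 and fits that each lacked 1 mouse. The genes and lists were chosen with earlier results of these data known. Named beside the 7 genes were, of each list, the 2 largest rises and 2 largest falls in vehicle mice among called genes whose groups do not overlap, genes called in a D + Q comparison, a set of partners named by function, and the 2 genes most like each of the 7, and some genes so chosen are not reported here. Positions and transcript lengths are from GENCODE vM39, and 38 rows that repeat a gene name were kept apart. The depth limits the precision of the least expressed genes.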

Additional observations from a re-analysis of the deposited data

Results flagged for a closer look

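Of 28 sets of 5 mice, 7 genes in 4 groups, 1 held a mouse far from the others by Dixon's criterion, where chance gives about 1 in 20. Ankrd1 in vehicle MOV mouse 5 was at 463.5 CPM and the nearest mouse at 224.6 CPM, a gap of 0.74 of the range of the group, above the critical value of 0.71. Without this mouse the log2 fold change of Ankrd1 was 3.14 in place of 3.56 for MOV against sham and -0.021 in place of -0.47 for D + Q against vehicle in MOV muscle.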

How the results depend on the processing

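Ankrd1, Ankrd2, Ankrd23, Csrp3 and Xirp1 kept their direction and their side of the threshold between MOV and sham, in each treatment, under 8 of 8 other settings and in all 10 fits that each lacked 1 mouse. Xirp2 in vehicle mice lost its call without a filter (0.59) and with the block (0.51), and in 7 of 10 fits without 1 mouse, and gained one in D + Q mice by total counts (0.53) and without D + Q MOV mouse 3 (0.28). Flnc lost its call in vehicle mice with the replicate number as a block (0.95, adjusted p = 0.0554 in edgeR) and was called in D + Q mice by total counts (0.78), limma-voom (0.47), counts in every mouse (0.47) and the block (0.43, adjusted p = 0.0305), and without D + Q sham mouse 1 (0.57) or D + Q MOV mouse 3 (0.53). The cause was not tested.

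Same-numbered mice did not deviate together (correlations from -0.26 to 0.28), and the block changed no other call of the 7 genes. The numbers are those of the sample titles, and another pairing or a batch was not tested. With the block, 2 genes of all tested were higher with D + Q in MOV muscle, 17 higher and 2 lower in sham muscle, and 0 higher in the interaction. By total counts 8392 genes were higher and 1654 lower between MOV and sham with D + Q (7683 and 1453 with vehicle), and 45 were higher with D + Q in sham muscle. DESeq2 called 6 higher and 5 lower with D + Q in MOV and 102 and 31 in sham muscle, no filter gave 56 and 11 in sham, and all 20 mice in one fit gave 16 higher in sham. Without 1 mouse each, the counts for D + Q against vehicle ran from 0 to 1 higher and 0 to 1 lower in MOV, from 2 to 59 higher and 0 to 15 lower in sham, and from 1 to 2 lower in the interaction. The correlated pairs of genes became 2 in sham and 13 in MOV mice by total counts. By exact permutation, total counts brought Xirp2 between MOV and sham (0.88 with vehicle, 0.52 with D + Q), Flnc with D + Q (0.80) and Ankrd2 for D + Q in MOV muscle (-0.74) under 0.05.

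Reversals concerned values with no call. Ankrd23 for D + Q in MOV muscle was -0.022 by limma-voom and ran from -0.074 to 0.082 without 1 mouse. In sham muscle the ranges without 1 mouse were -0.30 to 0.12 for Ankrd1, -0.13 to 0.15 for Ankrd2, -0.039 to 0.0086 for Xirp2 and -0.023 to 0.21 for Flnc, and Xirp2 was 0.022 by total counts in edgeR and 0.022 as a mean difference. The interaction of Ankrd1, -0.39 in all mice, ran from -0.59 to 0.048, the last without vehicle MOV mouse 5. With 5 mice a group and coefficients of variation up to 60.9%, differences of D + Q of the size seen could not be told from 0.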

Other observations

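Genes of regenerating fibers were higher in MOV than in sham muscle in 9 of 9 cases in both treatments. Of all genes tested, 30.7% were higher and 29.8% lower in vehicle mice, and 34.4% and 30.9% in D + Q mice. In vehicle mice the fusion gene Mymk rose by 5.48 on the log2 scale, from 0.197 to 9.65 CPM, embryonic myosin Myh3 by 5.03, from 8.68 to 280 CPM, and the myogenic factor Myog by 3.53 (adjusted p = 8.38e-10 in edgeR's quasi-likelihood test). Of 13 immediate early and SRF target genes, 10 rose and 1 fell in vehicle mice, and 9 rose and 2 fell with D + Q. Actc1, the cardiac actin that developing fibers also use, rose by 3.81 and Atf3, a stress-induced factor, by 2.66. Vehicle MOV mouse 5, with the highest levels of Ankrd1, Csrp3 and Flnc, had a sum of 461.3 CPM over the regenerating fiber genes, where its group ran from 460.1 to 949 CPM.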
